A study of Sus scrofa with 2 samples.

Results

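SLC22A2, SLC47A1, SLC22A6, SLC22A8 and SLC16A9 encode carriers that move organic cations, organic anions, drugs and small metabolites across the membranes of the proximal tubule. They were chosen by gene symbol, and they are 5 of the 31908 genes in the deposited count tables. Each symbol matched 1 row. The Ensembl identifiers were ENSSSCG00000004040 for SLC22A2, ENSSSCG00000033329 for SLC47A1, ENSSSCG00000023571 for SLC22A6, ENSSSCG00000029516 for SLC22A8 and ENSSSCG00000010210 for SLC16A9.

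Secretion of organic cations by the proximal tubule takes place in series. OCT2, the product of SLC22A2, takes up cations such as creatinine and metformin from the blood side, and MATE1, the product of SLC47A1, exchanges them for protons at the brush border. OAT1 (SLC22A6) and OAT3 (SLC22A8) take up organic anions at the blood side in exchange for dicarboxylates, and MCT9 (SLC16A9) belongs to the monocarboxylate transporter family and has been linked to carnitine transport. In the RefSeq order of pig genes SLC22A6 and SLC22A8 are neighbours, SLC22A2 is next to its relative SLC22A3, and SLC16A9 is between FAM13C and MRLN.

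The study compared single-nucleus RNA profiles of pig kidney cortex before and during normothermic machine perfusion at a supraphysiologic pressure, a model of glomerular hyperfiltration. Kidneys came from a slaughterhouse, were flushed with heparinised saline and stored cold. The unperfused library was made from cortex taken before perfusion and the perfused library from cortex taken 2 h after its start. Breed, age and sex of the animals, and whether both libraries came from the same kidney, were not given in the sources used here.

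There was 1 library per condition, so no difference between the libraries could be tested against the spread between kidneys, and perfusion, kidney and library preparation cannot be told apart. All intervals are exact 95% intervals that cover counting error only. Levels are given as CPM, the unique molecular identifiers (UMIs) of a gene per 1000000 UMIs of the class of nuclei. After filtering, 6389 nuclei of 7179 barcodes remained in the unperfused library and 5421 of 6205 in the perfused library, with a median of 3755 and 4383 UMIs per nucleus, and 14 barcodes occurred in both libraries.

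Proximal tubule nuclei numbered 1857 in the unperfused library (29.1%) and 1381 in the perfused library (25.5%), and they formed 3 clusters. The early segment cluster (1082 and 738 nuclei) was led by SLC7A8, STRA6, SLC5A12 and GATM, and all 8 early segment markers were raised in it. The later segment cluster (702 and 466 nuclei) was led by ADCY8, PGC, SLC22A2 and SLC16A9, with 6 of 10 later segment markers raised. The third cluster (73 and 177 nuclei) was led by POU2F3, SLC5A8, ETNPPL and NRG3, had 4 of 10 later and 1 of 8 early markers raised, and is called the SLC5A8 cluster. It was set apart from the later segment after its values were seen, and its average log2 fold over the proximal tubule marker list was -0.12, against 1.97 in the early and 1.18 in the later segment. The share of free RNA, estimated as the level of the thick limb genes SLC12A1 and UMOD relative to their level over all nuclei of the library, was 8.22% and 4.15% in the early segment, 10.0% and 5.63% in the later segment, and 35.2% and 7.51% in the SLC5A8 cluster. The unperfused value of that cluster rested on few nuclei, since 5 of its 73 nuclei held 198 of the 275 UMIs of these genes. Without the 5 nuclei richest in them, chosen after the values were seen, the shares in the cluster were 11.1% and 5.59%. Marker lists of other classes differed in both directions between its unperfused nuclei and those of the early segment, with more lists higher in the cluster than lower. The summed level was 352 against 220 CPM for the parietal list, but 28.6 against 38.3 CPM for the principal cell list and 81.3 against 336 CPM for the podocyte list. The 5 transporters were left out of the genes used for clustering, so their own counts did not place the nuclei. Segment differences are nevertheless descriptions, since the clusters come from the same nuclei.

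Transcripts of all 5 transporters were concentrated in the proximal tubule. Proximal tubule nuclei held 88.0% of the SLC22A2 UMIs before perfusion (1473 of 1674) and 88.4% after it (2075 of 2346). The shares were 88.2% and 90.6% for SLC47A1, 89.0% and 89.2% for SLC22A6, 92.2% and 92.0% for SLC22A8, and 91.6% and 90.0% for SLC16A9. The SLC5A8 cluster held 10.3% of all SLC22A2 UMIs without perfusion and 27.4% with it. For SLC47A1 its share was 10.2% and 36.7%, while this cluster made up 1.14% and 3.27% of the nuclei. For the anion transporters the cluster's share stayed below 1% in both libraries, with 0.295% and 0.590% for SLC22A6.

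**Figure D1:**
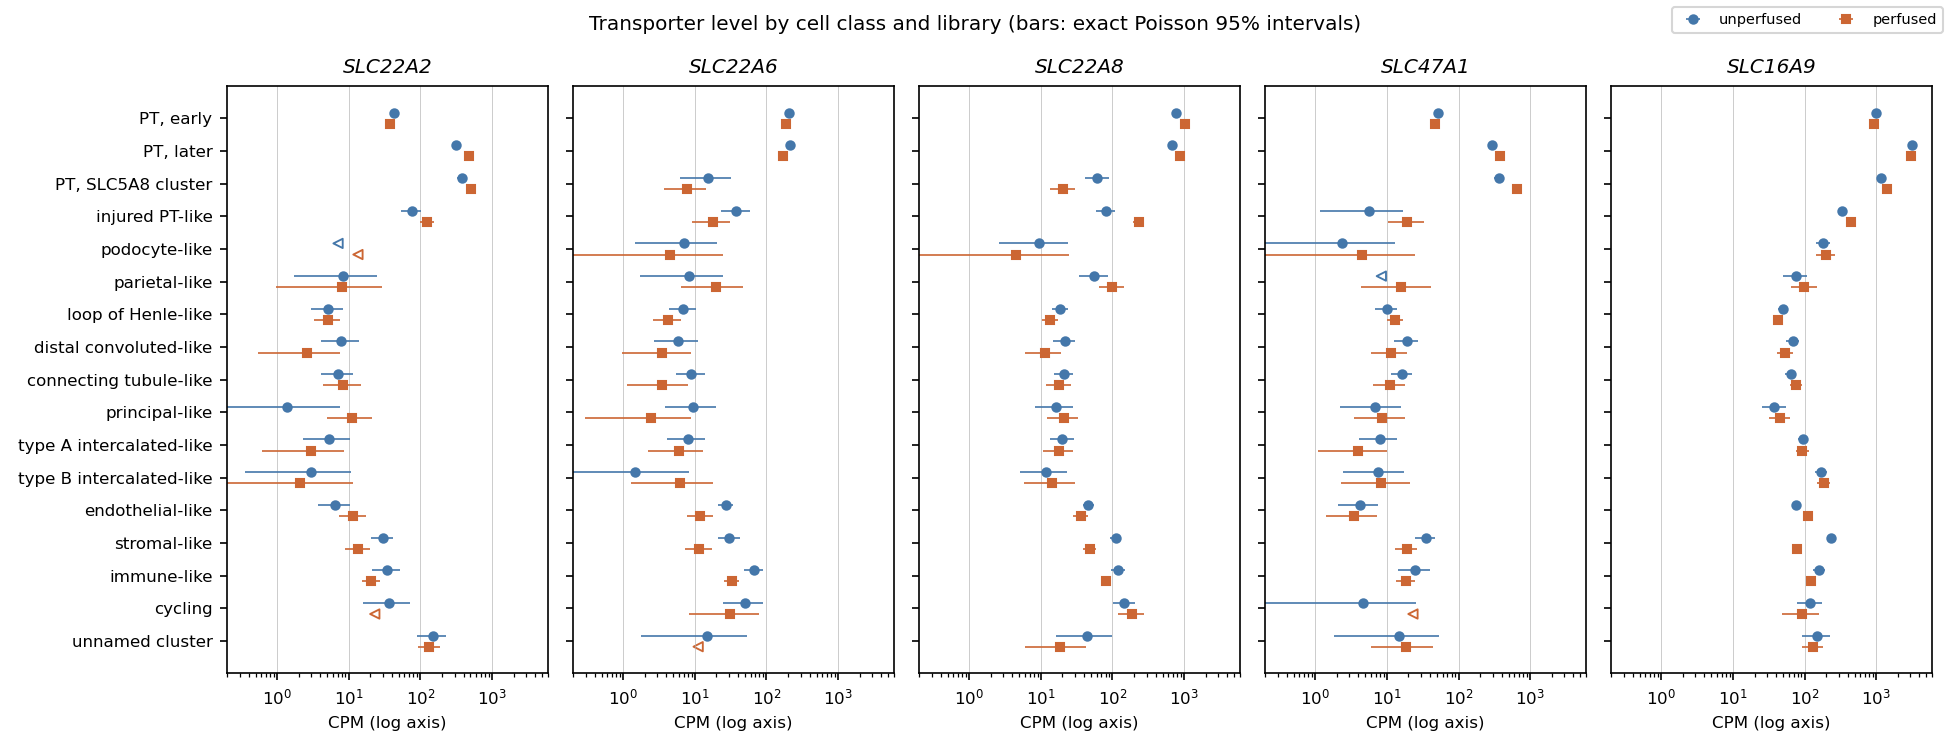
Level of each of the 5 transporters in CPM (log axis) by class of nuclei, with unperfused and perfused libraries as separate points and exact 95% Poisson intervals as bars. Open triangles mark a count of 0 at the level of 3 UMIs. The early and later segments have the highest points for SLC22A6 and SLC22A8, and the later segment and the SLC5A8 cluster have the highest points for SLC22A2 and SLC47A1.

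The cation uptake carrier gene SLC22A2 was low in the early segment and high in the later segment. Its level in the early segment was 42.6 CPM (295 UMIs) before and 37.9 CPM (216 UMIs) after perfusion. In the later segment it was 314 CPM (95% interval 295–334) and 475 CPM (449–503). In the SLC5A8 cluster it was 380 CPM (326–441) and 502 CPM (464–542), and these intervals overlap those of the later segment in both libraries. The later segment exceeded the early segment 7.36-fold before perfusion (log2 2.88, 2.69–3.07) and 12.5-fold after it (log2 3.65, 3.44–3.86), the largest step among the 5 transporters. No other class reached the level of these clusters. The next were an unnamed cluster with 149 and 134 CPM and injured-tubule-like nuclei with 76.0 and 124 CPM.

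The efflux carrier gene SLC47A1, whose product completes cation secretion at the brush border, had a similar order with a clearer step to the SLC5A8 cluster. It was measured at 51.3 and 47.6 CPM in the early segment, at 290 (272–309) and 379 (355–403) CPM in the later segment, and at 369 (315–429) and 658 (615–704) CPM in the SLC5A8 cluster. The later segment exceeded the early one 5.66-fold (log2 2.50, 2.32–2.68) and 7.96-fold (log2 2.99, 2.80–3.19). Between the SLC5A8 cluster and the later segment the log2 ratio was 0.35 (0.10–0.59) before and 0.80 (0.66–0.93) after perfusion. For SLC22A2 the corresponding ratios were 0.28 (0.04–0.51) and 0.08 (-0.06–0.22).

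The anion uptake carriers showed no step up to the later segment. SLC22A6 was at 206 CPM (195–217) in the early and 212 CPM (196–228) in the later segment of the unperfused library. In the perfused library the levels were 187 CPM (176–198) and 171 CPM (155–188). The log2 ratio of later over early was 0.04 (-0.09–0.17) and -0.13 (-0.29–0.03), so both intervals include 0. SLC22A8 was slightly lower in the later segment, with 763 against 667 CPM in the unperfused library (log2 -0.19, -0.27 to -0.12) and 1042 against 877 CPM in the perfused library (log2 -0.25, -0.32 to -0.18). With the finer clusters described further on and segments given by marker averages, the ratios were -0.38 and -0.91 for SLC22A6 and -0.37 and -0.75 for SLC22A8.

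In the SLC5A8 cluster, by contrast, both anion carriers had few UMIs. SLC22A6 had 7 UMIs (15.4 CPM) among 73 unperfused and 10 UMIs (7.81 CPM) among 177 perfused nuclei. SLC22A8 had 28 UMIs (61.5 CPM) and 26 UMIs (20.3 CPM). At the free RNA shares of all nuclei in the cluster, 14.2 and 6.02 UMIs of SLC22A6 and 48.5 and 31.6 UMIs of SLC22A8 would be present without any expression. In the nuclei that remained without the 5 richest in SLC12A1 and UMOD, 7 and 9 UMIs of SLC22A6 (95% intervals 2.81–14.4 and 4.12–17.1) were set against 3.99 and 4.32 from free RNA, and 25 and 22 UMIs of SLC22A8 (16.2–36.9 and 13.8–33.3) against 13.6 and 22.7. Of these, only the unperfused SLC22A8 interval lay above its free RNA value. The richest unperfused nucleus of the cluster held 9 of the 28 SLC22A8 UMIs, and the interval leaves out the error of the free RNA estimate. None of these counts is read as expression. The nuclei of the whole cluster held 173 and 643 UMIs of SLC22A2 and 168 and 843 of SLC47A1, of which free RNA at the higher shares would account for 10.1, 8.32, 9.90 and 8.15 UMIs.

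SLC16A9 was raised in the later segment but not further in the SLC5A8 cluster. Its level was 989 and 932 CPM in the early segment, 3147 (3086–3209) and 3072 (3004–3141) CPM in the later segment, and 1165 (1068–1268) and 1394 (1330–1460) CPM in the SLC5A8 cluster. The later segment exceeded the early segment 3.18-fold and 3.30-fold. In the SLC5A8 cluster the level was lower than in the later segment by log2 ratios of -1.43 (-1.56 to -1.31) and -1.14 (-1.22 to -1.07). The 5 carriers thus divided into SLC22A2 and SLC47A1, high in the later segment and the SLC5A8 cluster, SLC22A6 and SLC22A8, high in the early and later segments, and SLC16A9, highest in the later segment.

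**Figure D2:**
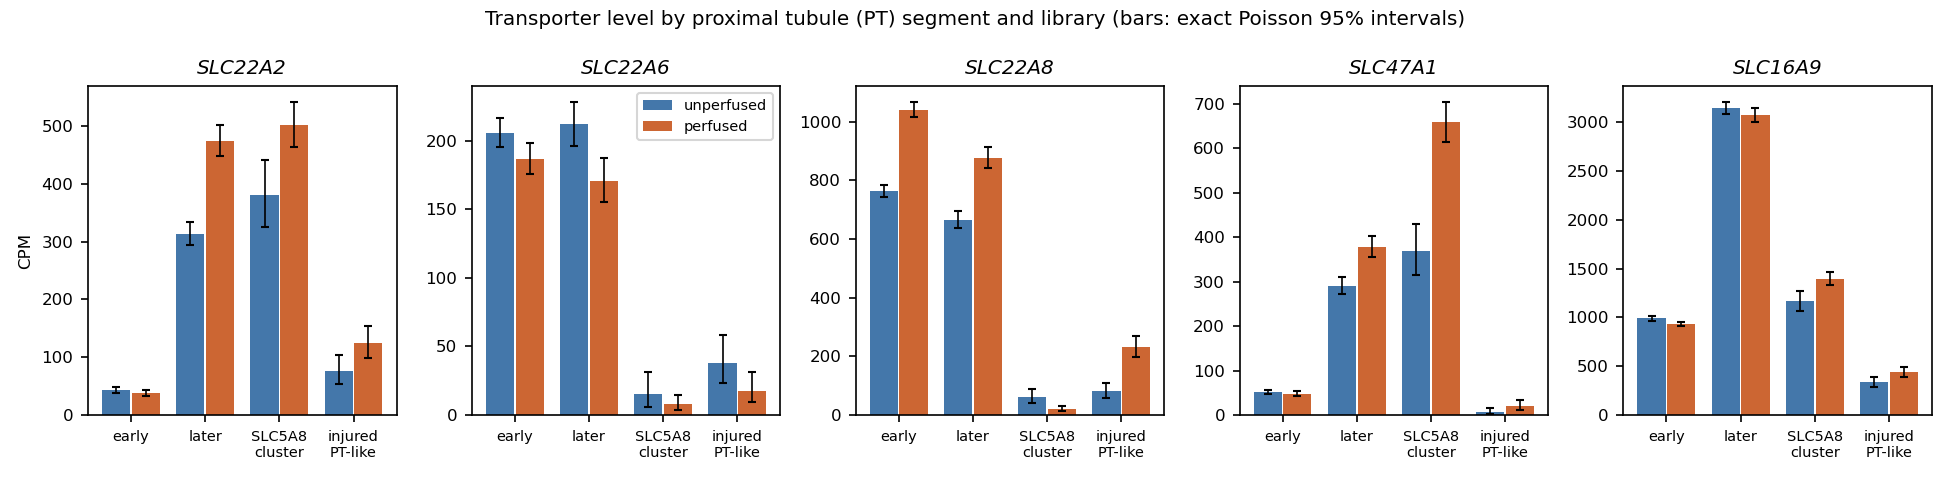
Level of each transporter in CPM in the early segment, the later segment, the SLC5A8 cluster and injured-tubule-like nuclei, 1 panel per gene with its own axis, with coloured bars for the 2 libraries and exact 95% Poisson intervals as error bars. SLC22A2 and SLC47A1 step up from early to later nuclei, SLC22A6 and SLC22A8 are far lower in the SLC5A8 cluster than in both segments, and SLC16A9 peaks in the later segment.

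At least 1.5-fold with at least 100 UMIs in both groups together was used as the size of a difference. Between later and early segment, 3 of the 5 transporters (SLC22A2, SLC47A1 and SLC16A9) were higher by this measure and none lower in the unperfused library, where 6.63% of 8793 genes were higher and 8.89% lower. In the perfused library the same 3 genes were higher, against 8.58% of 7797 genes higher and 12.8% lower. Between the SLC5A8 cluster and the later segment, none of the 5 was higher and 3 (SLC22A6, SLC22A8 and SLC16A9) were lower in the unperfused library, against 11.8% and 14.7% of 5641 genes. In the perfused library SLC47A1 was higher and the same 3 genes were lower, against 12.1% and 11.0% of 5591 genes.

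A finer clustering (resolution 1.0 in place of 0.5) placed the nuclei in 4 proximal tubule clusters, led by SLC7A8, PGC, ADCY8 and POU2F3 with SLC5A8. The PGC cluster (702 and 413 nuclei) was between the segments. Of its nuclei, 61.8% and 66.1% belonged to the later segment at the coarser resolution, while 7 of 8 early and 5 of 10 later markers were raised in it, with average log2 folds of 1.27 and 0.71. The ADCY8 cluster (267 and 190 nuclei) came from the later segment alone. SLC22A2 was at 23.7 and 24.1 CPM in the SLC7A8 cluster, 200 and 301 CPM in the PGC cluster, and 384 and 547 CPM in the ADCY8 cluster, in the unperfused and perfused libraries respectively. SLC47A1 was at 32.9 and 35.6, 192 and 224, and 354 and 486 CPM in the same clusters. Both cation carriers thus had intermediate levels in the PGC cluster. SLC22A6 went the other way, with 244 and 239 CPM in the PGC cluster and 165 and 104 CPM in the ADCY8 cluster, and so did SLC22A8, with 749 and 1112 against 583 and 626 CPM. SLC16A9 was at 793 and 843 CPM in the SLC7A8 cluster, 2463 and 2578 CPM in the PGC cluster and 3361 and 2914 CPM in the ADCY8 cluster.

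Injured-tubule-like nuclei (102 unperfused and 98 perfused), led by AGMO, RIMS2 and MEGF6 with 3 of 6 injury markers raised, had low levels of the carriers. SLC47A1 had 3 UMIs (5.70 CPM) in the unperfused and 13 UMIs (19.3 CPM) in the perfused library, and SLC22A6 had 20 and 12 UMIs (38.0 and 17.8 CPM). SLC22A8 was at 81.7 CPM (43 UMIs) without and 231 CPM (156 UMIs) with perfusion, with the perfused UMIs found in 36 nuclei of which the richest held 14. SLC22A2 was the exception, with 76.0 CPM (40 UMIs) and 124 CPM (84 UMIs), above the early segment by log2 ratios of 0.83 and 1.72. SLC16A9 was at 338 and 443 CPM. The free RNA share in these nuclei was 9.30% and 11.9%. At these shares free RNA would give 3.02 and 6.82 UMIs of SLC47A1 and 4.35 and 5.03 of SLC22A6. For SLC22A8 it would give 14.8 and 26.5 UMIs, for SLC22A2 3.07 and 6.96, and for SLC16A9 35.0 and 49.3. The unperfused SLC47A1 count is thus not read as expression.

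Outside the tubule clusters above, each transporter was set against LRP2 and CUBN, the endocytosis receptor genes of the proximal tubule, because free RNA from 1 source keeps its genes in 1 ratio. Per 1000 UMIs of LRP2 and CUBN, proximal tubule nuclei held 188 SLC16A9 UMIs without and 163 with perfusion. Type B intercalated nuclei held 1727 and 1780, which is 9.18-fold (7.56–11.0) and 10.9-fold (8.75–13.4) the proximal tubule ratio, from 114 and 89 SLC16A9 UMIs. Podocytes held 1100 and 2095, or 5.84-fold (4.61–7.31) and 12.8-fold (9.32–17.2), from 77 and 44 UMIs. Type A intercalated nuclei held 715 and 740, from 143 and 94 UMIs. SLC16A9 thus exceeded this ratio in both intercalated types and in podocytes. It was at 169 and 184 CPM in type B, 182 and 197 CPM in podocytes, and 95.5 and 93.4 CPM in type A nuclei. Other classes had levels in this range, with 161 and 122 CPM in immune nuclei and 149 and 130 CPM in the unnamed cluster. Stromal nuclei were at 235 and 77.8 CPM and endothelial nuclei at 76.8 and 110 CPM. The levels alone were thus not particular to intercalated nuclei and podocytes.

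SLC47A1 exceeded the ratio over all proximal tubule nuclei along the distal nephron at low levels. In the loop of Henle nuclei it was 3.42-fold (2.35–4.83) and 3.51-fold (2.69–4.50) the proximal tubule ratio, from 33 and 64 UMIs in 747 and 804 nuclei. In distal convoluted tubule nuclei 29 and 13 UMIs gave 8.08-fold (5.39–11.7) and 3.40-fold (1.81–5.83), and in connecting tubule nuclei 36 and 16 UMIs gave 5.11-fold and 2.39-fold. Loop of Henle nuclei were at 9.96 and 12.9 CPM of SLC47A1, against 34.7 and 18.8 CPM in stromal nuclei. In the SLC5A8 cluster SLC47A1 was at 369 and 658, LRP2 at 2692 and 2996 and CUBN at 5032 and 6399 CPM. In the later segment they were at 290 and 379, 3905 and 3995, and 5714 and 6469 CPM. The ratio was thus higher in the SLC5A8 cluster, and whether its free RNA gave the distal UMIs was not tested. The unnamed cluster led by GALNT14 and EPHA7, with 59 and 89 nuclei, held 20 and 36 UMIs of SLC22A2, which is 12.6-fold (7.67–19.5) and 7.53-fold (5.26–10.5) the proximal tubule ratio. These UMIs came from 12 and 24 nuclei. SLC22A6 was above the ratio in endothelial nuclei, with 4.57-fold (3.55–5.79) and 2.33-fold (1.49–3.49) from 71 and 24 UMIs, at 27.0 and 12.0 CPM. Immune nuclei were also above it, by log2 values of 1.80 and 1.70 from 43 and 75 UMIs. Their SLC22A6 levels were higher, 66.7 and 33.0 CPM, and those of stromal nuclei were 30.5 and 11.5 CPM. The excess was thus not particular to endothelial nuclei. With SLC34A1 and SLC5A12 as the reference genes these ratios also exceeded those of the proximal tubule. For SLC16A9 the log2 values were 2.34 and 3.21 in type B, 1.86 and 2.85 in podocytes and 1.27 and 2.41 in type A nuclei. They were 4.36 and 4.30 for SLC22A2 in the unnamed cluster and 1.44 and 0.85 for SLC22A6 in endothelial nuclei. Podocytes held no SLC22A2 UMI in either library, and a count of 0 allows up to 7.09 and 13.4 CPM, the level of 3 UMIs.

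**Figure D3:**
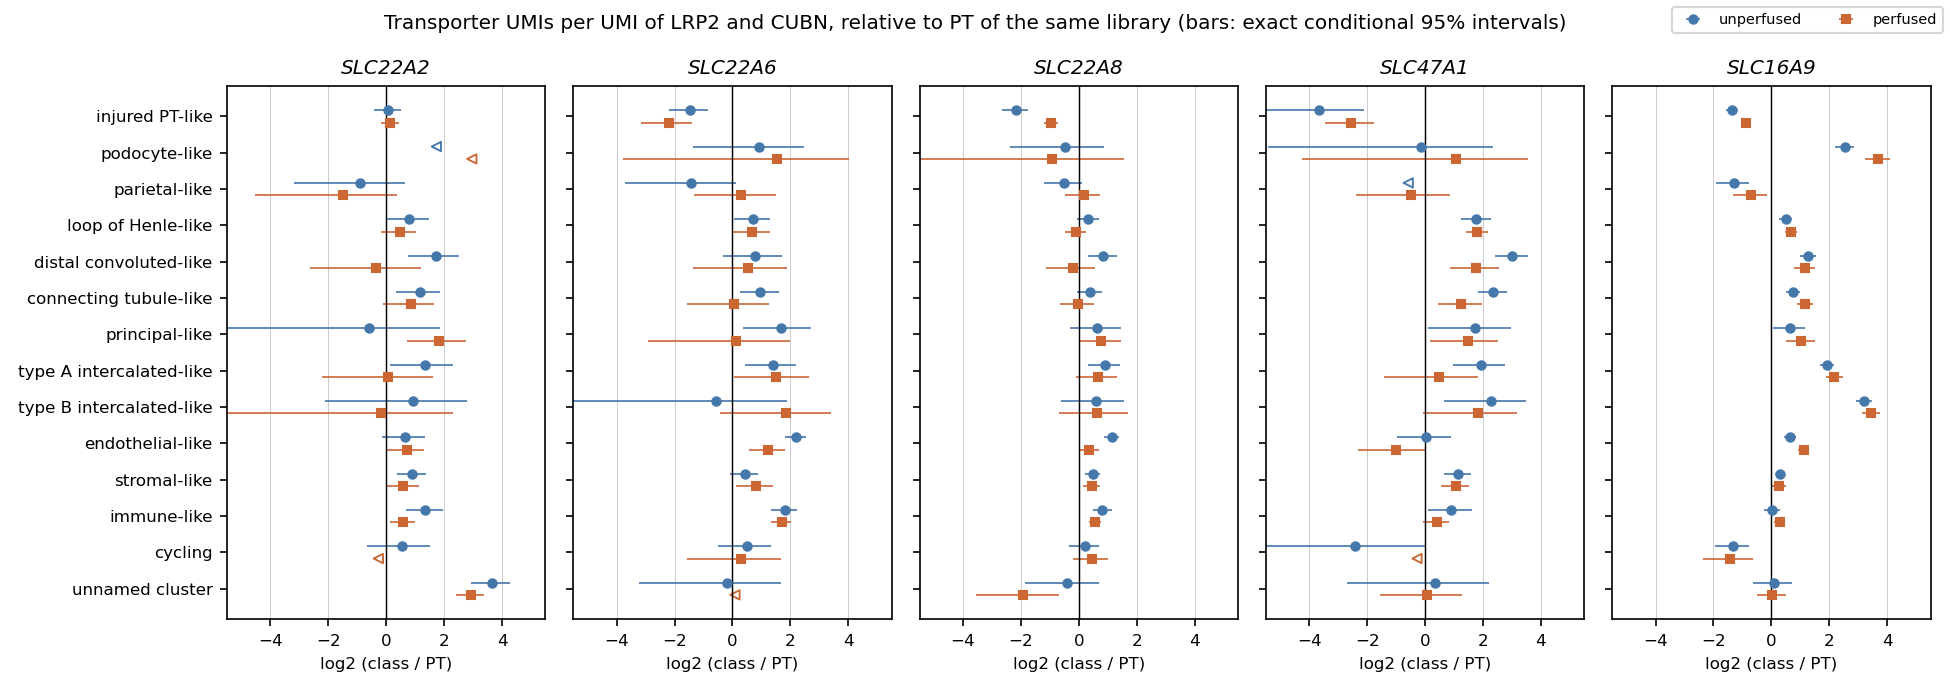
Ratio of each transporter's UMIs to the UMIs of LRP2 and CUBN in other classes of nuclei, relative to the same ratio in the proximal tubule of that library, as log2, with exact 95% intervals as bars. Open triangles mark the upper bound for a count of 0. SLC16A9 in type B intercalated nuclei and podocytes and SLC22A2 in the unnamed cluster are above 0 in both libraries.

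Between the libraries, the cation carriers had higher levels over all proximal tubule nuclei after perfusion, and the anion carriers differed in opposite directions. SLC22A2 had 139 CPM in unperfused and 218 CPM in perfused nuclei (log2 0.64, 0.55–0.74). SLC47A1 had 137 and 218 CPM (log2 0.67, 0.57–0.77). SLC22A6 was at 199 and 159 CPM (log2 -0.33, -0.43 to -0.24) and SLC22A8 at 704 and 860 CPM (log2 0.29, 0.24–0.34). SLC16A9 had 1650 and 1568 CPM, and its log2 ratio was -0.07 (-0.11 to -0.04), which became 0.0087 with TMM scaling and 0.025 with DESeq2 size factors. SLC22A2 and SLC47A1 were past 1.5-fold, that is, 2 of the 5 transporters were higher by this measure and none lower, where 2.56% of 10631 genes were higher and 9.49% lower. The median log2 ratio of all these genes was -0.04. Of all genes past 1.5-fold, 21.2% were higher in the perfused library, against 30.9% with TMM scaling and 33.9% with DESeq2 size factors.

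The size of the difference in the cation carriers over all proximal tubule nuclei depended in part on the SLC5A8 cluster, more so for SLC47A1 than for SLC22A2. This cluster held 73 of 1857 unperfused and 177 of 1381 perfused proximal tubule nuclei. Without it the log2 ratios were 0.43 for SLC22A2 and 0.24 for SLC47A1, both under 1.5-fold. With the shares of the 3 clusters held at those of the unperfused library they were 0.45 and 0.34.

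Within the early segment neither cation carrier differed between the libraries beyond counting error. SLC22A2 had a log2 ratio of -0.17 (-0.43–0.09), which was 0.26 with the PGC cluster counted as early, and SLC47A1 of -0.11 (-0.34–0.12), and none of the 5 transporters was past 1.5-fold in either direction, where 1.43% of 9229 genes were higher and 8.06% lower. SLC22A8 was higher by 0.45 (0.40–0.50) in log2 and SLC22A6 was lower, at -0.14 (-0.25 to -0.02), a direction that turned to 0.014 as the median of 20 random thinnings to 1000 UMIs. In the later segment SLC22A2 was higher by a log2 ratio of 0.60 (0.48–0.72), or 1.52-fold, the only 1 of the 5 past 1.5-fold, against 2.19% of 6858 genes higher and 7.44% lower. Over 15 alternatives this ratio was between 0.48 and 0.79, on both sides of 1.5-fold. SLC47A1 was higher by 0.38 (0.25–0.52) and SLC22A8 by 0.40 (0.31–0.48), and SLC22A6 was at -0.31 (-0.49 to -0.14). In the ADCY8 cluster alone SLC22A8 was at 0.10 and SLC22A6 at -0.66. SLC16A9 was nearly level in both segments, at -0.09 (-0.14 to -0.03) and -0.03 (-0.08–0.01), and its early value changed sign under 4 of 15 alternatives.

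In the SLC5A8 cluster SLC47A1 had a log2 ratio of 0.83 (0.59–1.08) and was the only 1 of the 3 transporters with enough UMIs to pass 1.5-fold, where 4.45% of 3460 genes were higher and 4.6% lower. It was under 1.5-fold when scaled to LRP2 and CUBN (0.55) and with free RNA subtracted (0.39). Without the 5 nuclei of each library richest in SLC12A1 and UMOD it was at 0.75, and at 0.68 with free RNA then subtracted. SLC22A2 was at 0.40 (0.16–0.65), and turned to -0.045 when free RNA was subtracted, but was at 0.35 when this was done without those nuclei. SLC16A9 was at 0.26 (0.12–0.40) and turned to -0.023 when scaled to LRP2 and CUBN. TMM and DESeq2 scaling both moved all genes of this cluster by 0.17 in log2.

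**Figure D4:**
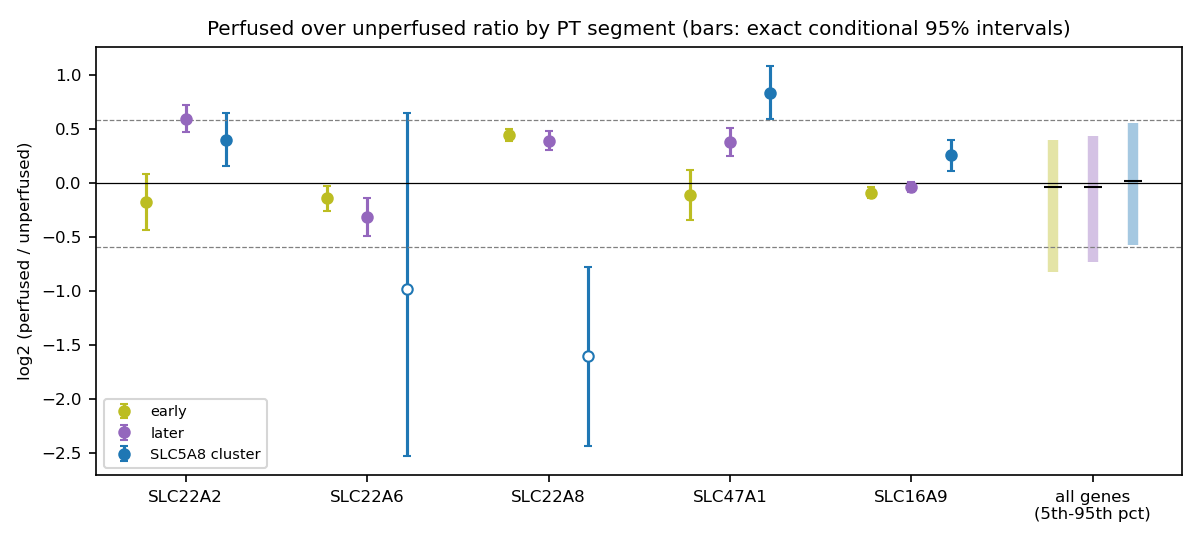
Log2 ratio of perfused over unperfused CPM for each transporter in each proximal tubule cluster, with exact 95% intervals as bars, open points for under 100 UMIs, dashed lines at 1.5-fold and, on the right, the median and the range from the 5th to the 95th percentile of all genes. SLC22A2 and SLC47A1 lie above 0 in the later segment and the SLC5A8 cluster and have intervals that include 0 in the early segment, and SLC22A8 lies above 0 in the early and later segments.

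The share of nuclei with a UMI showed the same segment pattern at equal depth. After each nucleus was thinned to 1000 UMIs, which left out 16 unperfused and 25 perfused proximal tubule nuclei with fewer UMIs, SLC22A2 was found in 4.26% and 3.25% of early, 25.1% and 35.1% of later and 34.2% and 38.4% of SLC5A8 cluster nuclei in the unperfused and perfused libraries. SLC47A1 was found in 6.21% and 5.28%, 24.4% and 33.3%, and 35.6% and 46.9%. For SLC22A6 the shares were 17.7% and 19.2% of early and 17.9% and 14.5% of later nuclei, and in the SLC5A8 cluster 2.74% of the unperfused and none of the 177 perfused nuclei. In endothelial nuclei, of which 52 and 37 were left out, the shares were 0.724% and 1.17% for SLC22A2, 0.563% and 0.130% for SLC47A1 and 1.77% and 0.778% for SLC22A6. For SLC22A6, which was above the free RNA ratio in endothelial nuclei, loop of Henle nuclei had shares of 1.08% and 0.625%. SLC22A8 was found in 49.3% and 61.5% of early and 45.1% and 55.3% of later nuclei, against 4.42% and 4.28% of endothelial nuclei. In the SLC5A8 cluster its shares were 1.37% (0.03–7.40%) and 2.26% (0.62–5.68%), from 1 and 4 nuclei. These intervals include the endothelial shares. At 2000 UMIs the SLC22A8 shares were 9.86% and 1.75% in the cluster, against 7.19% and 4.72% of the endothelial nuclei that remained. That depth left out 739 of 1295 unperfused and 299 of 808 perfused endothelial nuclei. SLC16A9 was found in 45.5% and 44.0% of early, 76.3% and 81.0% of later and 56.2% and 59.9% of SLC5A8 cluster nuclei, against 7.16% and 7.39% of endothelial nuclei.

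Without thinning, the shares over all proximal tubule nuclei were higher, since a median early nucleus held 5957 and 7381.5 UMIs a median loop of Henle nucleus 4154 and 5753 and a median endothelial nucleus 1875 and 2201. They were 36.1% and 45.8% for SLC22A2, 38.0% and 47.2% for SLC47A1, 56.7% and 52.1% for SLC22A6, 85.9% and 81.0% for SLC22A8 and 87.6% and 89.7% for SLC16A9. The corresponding thinned shares were 14.3% and 19.2%, 14.0% and 19.1%, 18.3% and 13.6%, 45.7% and 52.5%, and 56.9% and 57.0%.

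**Figure D5:**
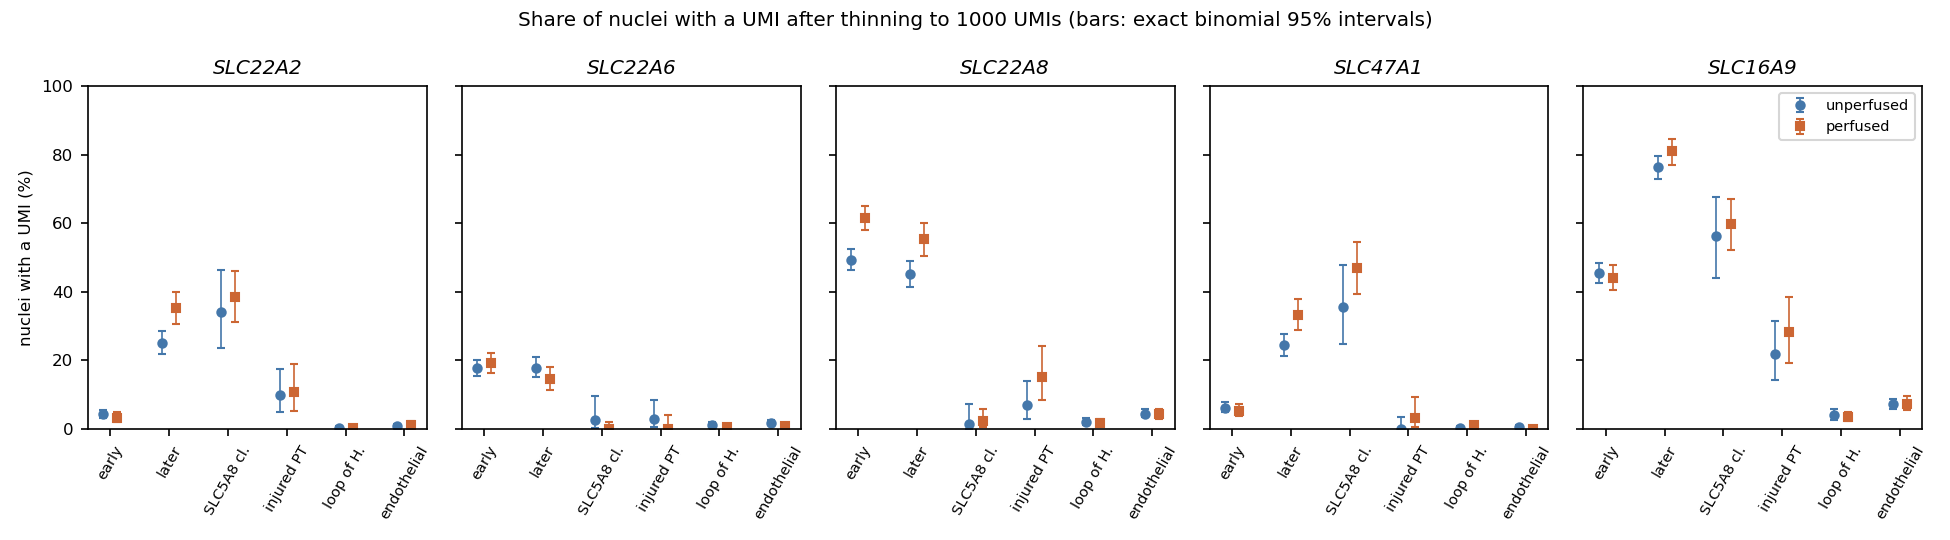
Percent of nuclei with at least 1 UMI of each transporter after thinning to 1000 UMIs, in the 3 proximal tubule clusters and in injured-tubule-like, loop of Henle and endothelial nuclei, with exact 95% binomial intervals as bars. The SLC22A6 and SLC22A8 shares in the SLC5A8 cluster are no higher than 2.74%, and the SLC22A2 and SLC47A1 shares there are 34.2% or more.

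Across the pooled proximal tubule nuclei, carriers of the same kind were found in the same nucleus more often than their single shares give. The pool joins clusters with different levels. Within clusters the values were smaller, apart from the cation pair in the early segment. Over all proximal tubule nuclei thinned to 1000 UMIs, SLC22A2 and SLC47A1 were found together 1.66 and 1.79 times as often as the product of their single shares, and SLC22A6 and SLC22A8 1.12 and 1.32 times as often. Within the later segment these values were 1.26 and 1.08 for the cation pair and 1.10 and 1.07 for the anion pair. Within the early segment they were 3.50 and 2.37 for the cation pair, from 10 and 3 nuclei with both, and 1.09 and 1.05 for the anion pair. In the SLC5A8 cluster the cation pair was at 0.90 and 1.03. A cation and an anion carrier were found together in 22.1% and 34.2% of later nuclei, where the product of the shares was 22.6% and 34.2%. A cation and an anion carrier occurred together in the SLC5A8 cluster in 3 of 73 and 1 of 177 nuclei. None of the 5 transporters was detected in 21.5% and 14.9% of early and 7.55% and 3.40% of later nuclei at this depth.

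Related carriers and their regulators were taken from lists of 45 further organic ion, carboxylate and peptide carrier genes and 12 factor and scaffold genes in the files. Over all proximal tubule nuclei 32 of the 45 had at least 100 UMIs, of which 4 were higher and 3 lower past 1.5-fold after perfusion, against 2.56% and 9.49% of all genes, and their median log2 ratio was 0.03. The 4 higher genes were SLC5A8 (1.97), SLC22A11 (2.06), SLCO2A1 (1.51) and SLC13A2 (1.03), and among the 3 proximal tubule clusters each was highest in the SLC5A8 cluster in both libraries. The 3 lower genes were SLC17A4, SLC22A14 and SLC16A4. In the early segment none of 27 was higher and 3 were lower, against 1.43% and 8.06% of all genes. In the later segment 1 of 25 was higher and 2 lower, against 2.19% and 7.44%, and in the SLC5A8 cluster 5 of 21 were higher and 3 lower, against 4.45% and 4.6%.

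SLC17A4, a brush border anion carrier of the phosphate transporter family, was lower in the perfused library in all 3 proximal tubule clusters. It was at 479 and 179 CPM in the early segment (log2 -1.42, -1.52 to -1.32) and at 433 and 156 CPM in the later segment (log2 -1.48, -1.64 to -1.31). SLC13A2, the sodium-dicarboxylate cotransporter of the brush border, had the same order of segments as SLC47A1, with 45.2 and 43.7 CPM in the early segment, 204 and 282 CPM in the later segment and 578 and 1010 CPM in the SLC5A8 cluster. SLC22A12, the urate exchanger URAT1, was at 277 and 296, 423 and 589, and 637 and 1051 CPM in the same order. SLC47A2, the closest relative of SLC47A1, had smaller steps, with 89.3 and 81.8, 133 and 124, and 152 and 165 CPM, and its log2 ratio of the SLC5A8 cluster over the early segment was 0.76 (0.38–1.12) and 1.01 (0.77–1.25). Reads that fit relatives such as these equally well could be split or lost in counting, which was not tested.

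Between later and early segment, 9 of 29 carriers of the list were higher and 5 lower in the unperfused library, against 6.63% and 8.89% of all genes. In the perfused library 9 of 26 were higher and 5 lower, against 8.58% and 12.8%. SLCO4C1, an organic anion carrier of the blood side, had log2 ratios of 1.86 and 2.58. ABCC2, the brush border efflux pump for anion conjugates, was at 726 and 774 CPM in the early segment, at 581 and 486 CPM in the later segment and at 116 and 96.8 CPM in the SLC5A8 cluster. Its later over early log2 ratios were -0.32 (-0.40 to -0.24) and -0.67 (-0.76 to -0.58), the perfused value past 1.5-fold. Between the SLC5A8 cluster and the later segment, 8 of 24 were higher and 9 lower in the unperfused library, against 11.8% and 14.7% of all genes, and 9 of 25 higher and 8 lower in the perfused library, against 12.1% and 11.0%. SLC5A8, SLC13A3 and SLC5A12 of this list were also markers used to name the segments, so their own segment values are not separate evidence.

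None of the 9 factor and scaffold genes with at least 100 UMIs was past 1.5-fold between the libraries in the proximal tubule. HNF4A, a nuclear receptor of proximal tubule identity, was at 512 and 477 CPM in the early and 672 and 665 CPM in the later segment. PDZK1, the brush border scaffold that binds several of these carriers, was at 455 and 416 CPM in the early, 795 and 773 CPM in the later segment and 927 and 1003 CPM in the SLC5A8 cluster.

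The genes most like each transporter were ranked by Pearson correlation of log2(CPM + 5) over 39 points, the clusters of each library with at least 20 nuclei, among 11032 genes. These points share libraries, depth and free RNA, and the correlations are descriptions. For SLC22A2 the leading genes were SLC16A6 (r = 0.93), GGT5 (0.92), PDZK1 (0.92), AKR1C2 (0.91) and GRAMD1B (0.91). For SLC47A1 they were SLC13A2 (0.92), TEX33 (0.91), HGD (0.90), PRSS55 (0.88) and GLTPD2 (0.88). SLC22A6 and SLC22A8 shared SLC5A12 (0.93 and 0.94) and SMPDL3A (0.89 for both), and each was among the 5 genes most like the other (0.93). The list of SLC22A6 also held C3orf52 (0.88) and that of SLC22A8 GATM (0.90). For SLC16A9 the leading genes were ACMSD (0.91), SLC10A2 (0.91), RHOBTB1 (0.90), SLC47A2 (0.89) and HAO2 (0.89). Among the 5 transporters the correlation was 0.80 for SLC22A2 with SLC47A1 and 0.46 for SLC22A6 with SLC47A1.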

How the data were processed

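Nuclei were isolated from snap frozen cortex and libraries prepared with a 10x Genomics 3' kit. The submitters' processing notes name Cell Ranger 5.0.1, and the study's methods state that intronic reads were counted against an Ensembl pig annotation. The deposited values are whole-number UMI counts per gene and barcode, before the filters and the ambient RNA removal that the authors describe, and the authors' cell annotation was not used here.

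The study's limits on barcodes were used, 500 to 6000 detected genes and no more than 7% mitochondrial UMIs. Doublets called by Scrublet (scanpy 1.11.5) were then removed, 641 of the unperfused (9.12%) and 489 of the perfused nuclei (8.27%). The libraries, of 34415254 and 35525592 UMIs, were integrated and clustered with Seurat 5.3.0 (2000 variable genes, 15 principal components, resolution 0.5), with the 5 transporters and the related carriers left out of the variable genes. Clusters were named from 14 lists of cell class markers and 2 segment lists, of which 110 of 117 genes were in the files. A proximal tubule cluster took the segment with the higher average log2 fold over its markers, and one with the higher average for later markers but an average below 0 for early markers was kept apart, a rule set after values were seen. Under other clusterings a cluster took the segment that most of its nuclei had in the main one. The transporters, lists and rules were chosen with earlier results of these data known. The 5 transporters were always named, related carriers were named from those with at least 100 UMIs in proximal tubule nuclei, and other genes by their correlation rank or as leading genes of a cluster.

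UMIs were summed per class and library. CPM have exact Poisson intervals, ratios exact conditional binomial intervals and shares exact (Clopper-Pearson) intervals, all at 95%, computed with scipy 1.17.1. Shares at 1000 UMIs come from 1 random thinning of each nucleus, without nuclei of fewer UMIs. The ratio and its interval were tested on simulated counts. UMI counting error is the only error covered. No model was fitted across samples, since each condition had 1 library. edgeR 4.0.16 (TMM) and DESeq2 1.42.0 gave alternative scaling factors only. The free RNA share of a class was its SLC12A1 and UMOD level divided by that over all nuclei of the library. Gene order came from a RefSeq table of the Sscrofa11.1 assembly, which may differ from the build of the files, so no coordinates are given, and SLC47A1 had no row in it. SLC22A5, ABCB1, SLC22A9, SLC22A10, ABCC4 and PDZK1IP1 of the lists, and the markers HAVCR1, CD24, KRT19, PODXL, KL and MKI67, were not analysed here. Some other genes of the lists are not reported here. Alternatives covered clustering, filters, scaling, free RNA, thinning and weighting.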

Additional observations from a re-analysis of the deposited data

Results flagged for a closer look

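For SLC22A8 and SLC16A9 the log2 ratio of perfused over unperfused nuclei had opposite signs in different classes, with intervals that did not include 0. The difference between classes was not tested, since there was 1 library per condition. SLC22A8 was at 0.45 in the early segment, 0.40 in the later segment and 1.501 in the injured-tubule-like nuclei, but at -1.60 in the SLC5A8 cluster, from 28 and 26 UMIs. Without the 5 nuclei of each library richest in SLC12A1 and UMOD these were 25 and 22 UMIs, against 13.6 and 22.7 that free RNA would give. SLC16A9 was at -0.085 in the early segment, 0.26 in the SLC5A8 cluster and 0.39 in the injured-tubule-like nuclei. Its early value changed sign under 4 of 15 alternatives. Its value in the SLC5A8 cluster turned to -0.023 when scaled to LRP2 and CUBN.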

How the results depend on the processing

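No paired analysis was possible because each condition had 1 library. The 1000 UMI depth limits shares of nuclei, and counts below about 30 UMIs (SLC22A6 and SLC22A8 in the SLC5A8 cluster, most values outside the proximal tubule) give wide intervals. Leaving out nuclei with a marker UMI of another lineage gave no values, since 8 of 1857 and 7 of 1381 proximal tubule nuclei remained, and the 930 and 691 nuclei at or below the median share of such UMIs were used in its place, an alternative chosen after seeing the data, as were fixed cluster shares, the omission of the SLC5A8 cluster, that of the richest nucleus, and the median over 20 thinnings in place of a single one. The causes of the changes below were not tested.

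Over all proximal tubule nuclei the perfused over unperfused log2 ratios kept their direction under all 16 alternatives except for SLC16A9. With DESeq2 size factors they were 0.74 for SLC22A2, -0.23 for SLC22A6, 0.39 for SLC22A8, 0.77 for SLC47A1 and 0.025 for SLC16A9, and with TMM scaling 0.37 for SLC22A8 and 0.0087 for SLC16A9. Scaled to LRP2 and CUBN they were 0.51 for SLC22A2, -0.46 for SLC22A6, 0.16 for SLC22A8, 0.54 for SLC47A1 and -0.21 for SLC16A9. With equal weight per nucleus they were 0.78 for SLC22A2, -0.21 for SLC22A6 and 0.37 for SLC22A8. With cluster shares held fixed they were 0.45 for SLC22A2, -0.19 for SLC22A6, 0.43 for SLC22A8 and 0.34 for SLC47A1, and without the SLC5A8 cluster 0.43, -0.19, 0.44 and 0.24. In nuclei with fewer marker UMIs of other lineages SLC22A6 was at -0.20 and SLC16A9 at 0.032, nuclei thinned to 1000 UMIs (median of 20 draws) gave 0.75 for SLC22A2, -0.22 for SLC22A6 and 0.35 for SLC22A8, and SLC16A9 was at -0.12 with free RNA subtracted.

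Within segments, SLC22A6 in the early segment turned to 0.099 in nuclei with fewer such UMIs and 0.014 after thinning, where 20 draws spread from -0.14 to 0.25, and SLC16A9 there to 0.087 at resolution 1.0, 0.091 without the mitochondrial limit, 0.0017 with DESeq2 size factors and 0.014 in nuclei with fewer such UMIs. In the SLC5A8 cluster SLC22A2 turned to -0.045 with free RNA subtracted (0.35 without the 5 nuclei richest in SLC12A1 and UMOD, also added) and SLC16A9 to -0.023 when scaled to LRP2 and CUBN.

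The later over early log2 ratios of SLC22A2, SLC47A1, SLC16A9 and SLC22A8 kept their sign in all 11 alternatives, with thinning taken as its median (for unperfused SLC22A8 the 20 draws spread from -0.22 to 0.023). At resolution 1.0 they were 3.42 and 4.03 for SLC22A2, 2.87 for unperfused SLC47A1, 1.78 for unperfused SLC16A9, -0.12 and -0.15 for SLC22A8 and 0.090 for perfused SLC22A6. With the segments of resolution 1.0 given by marker averages instead, which puts the PGC cluster into the early segment (added after seeing the data), they were 2.11 and 2.36 for SLC22A2, 1.95 and 2.41 for SLC47A1, 1.25 and 1.10 for SLC16A9, -0.37 and -0.75 for SLC22A8 and -0.38 and -0.91 for SLC22A6. Without the mitochondrial limit they were 3.39 and 3.91, 2.90, 1.79, -0.11 and -0.16, and 0.056. After thinning they were 3.44 for perfused SLC22A2, -0.10 for unperfused SLC22A8, and 1.62 and 1.78 for SLC16A9. In nuclei with fewer marker UMIs of other lineages they were -0.35 for perfused SLC22A6 and 1.60 and 1.61 for SLC16A9. With equal weights they were -0.16 for perfused SLC22A8 and 1.62 for unperfused SLC16A9. SLC16A9 was at 1.58 without integration (unperfused), and at 1.63 with doublets kept and 1.82 with the carriers among the variable genes (perfused).

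Of the proximal tubule genes, 272 were higher and 1009 lower past 1.5-fold in the perfused library. With at least 20 UMIs these numbers were 725 and 2611, with at least 4 UMIs 1435 and 4872, and with DESeq2 size factors 419 were higher. The shares of proximal tubule nuclei with a UMI, unperfused and perfused, were 36.1% and 45.8% for SLC22A2, 56.7% and 52.1% for SLC22A6, 85.9% and 81.0% for SLC22A8, 38.0% and 47.2% for SLC47A1 and 87.6% and 89.7% for SLC16A9 as deposited. With 2000 UMIs per nucleus they were 20.9% and 27.6%, 32.0% and 26.5%, 67.0% and 67.5%, 21.6% and 29.8%, and 71.6% and 73.9%.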
